A study of Mus musculus with 121 samples.

Results

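The 6 genes described here are Il23r, Spock1, Dner, Cacng7, Shisal1 and Elovl3, out of 31053 genes listed in the counts. They were taken because each stood among the first genes of a comparison between treatments, either with libraries named by their sample titles or with libraries named by their library number. Their treatment differences are therefore given as counts, levels and ranks, with no test. The genes were called near-detection genes, and this held for 5 of them, whose totals over 62 libraries were 45 to 128 counts. Cacng7 was different, with 26825 counts, at least 1 in every library, and a mean of 73.8 CPM (counts scaled to a library total of 1000000), higher than 82.7% of the genes tested.

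The cells were fibroblasts from mice with a PER2::LUC sv knock-in reporter, expanded to passage P25 as an immortalized ear line, so that every library comes from the same cell line. Cultures in all groups received DMEM-based media for 3 cycles of 24 h, each made of 12 h periods in a medium high in glucose and insulin (H) or low in both (L). HL cultures had H before L in each cycle, LH cultures had L before H, and HH cultures, which serve as the constant condition, had H throughout. After a free run of 12 h, RNA was collected at 6 times 4 h apart and sequenced at the 3′ end of transcripts (3′DGE), with 2 to 4 libraries for each treatment and collection. By titles there were 21 HL, 22 LH and 19 HH libraries. The study's read summary, which lists libraries by number, gives another name to 35 of the 62 libraries and does not list 5 more. By library number there were 19 libraries of each treatment, with the same HH libraries as by title. Of the titled HL libraries 15 are LH by number, and of the titled LH libraries 16 are HL by number. The exchange follows the collections: titled HL keeps its name in collection 1 alone, and titled LH keeps it in collection 1 and in 1 library of collection 2, while the 5 unlisted libraries are all of collection 2. HL and LH are therefore largely exchanged between the namings, and the counts of each treatment are given under both.

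Libraries held 104912 to 11619095 counts, with a median of 5825881, and the library with 104912 counts (LH collection 2 replicate 2) stood apart from the others, the next having 2136819. Fibroblast markers were abundant, with 10 of 10 tested and a summed level of 15344 to 37379 CPM in HH libraries, 9861 to 38620 CPM in HL libraries and 13863 to 36038 CPM in LH libraries. The lymphocyte markers Cd3g, Cd4 and Il17a and the keratinocyte marker Krt5 had no count in any library.

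The 6 genes belong to different families. Il23r encodes the receptor chain specific for interleukin 23, which signals with Il12rb1 through Jak2, Tyk2 and Stat3 and is known from T helper 17 cells and other lymphocytes. Spock1 encodes testican, a secreted proteoglycan related to Sparc. Dner encodes a transmembrane protein with EGF-like repeats, described as a Notch ligand in neurons. Elovl3 encodes a fatty acid elongase of the endoplasmic reticulum, strongly expressed in brown fat in the cold, in sebaceous glands and in liver. Cacng7 encodes a transmembrane protein of the calcium channel gamma subunit family, which in neurons regulates AMPA-type glutamate receptors. Shisal1 encodes a member of the Shisa-like transmembrane proteins.

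In the GRCm38 annotation, Il23r lies on the minus strand of chromosome 6 (67422932 to 67491855), Spock1 on the minus strand of chromosome 13 (57421195 to 57908332) and Dner on the minus strand of chromosome 1 (84369839 to 84696221). Shisal1 is on the minus strand of chromosome 15 (84379203 to 84447097), Cacng7 on the plus strand of chromosome 7 (3332955 to 3368221) and Elovl3 on the plus strand of chromosome 19 (46131897 to 46135694). Dner overlaps Gm37959 and Gm37925 on the same strand and Mir5126 on the opposite strand, and Cacng7 overlaps Gm44256 on the same strand. None of these overlapping genes is listed in the counts. The last 10 bases of Elovl3 overlap Pitx3 on the opposite strand, which had 312 counts over all libraries. Whether the counting used strand is not given in the sources used here, so reads in these bases cannot be assigned with certainty.

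Il23r rested on 4 libraries. Over all libraries it had 80 counts in 16 libraries, and 64 of them (80.0%) were in the 4 libraries that reached 1 CPM. These were LH collection 2 replicate 1 with 27 counts (6.23 CPM), HL collection 2 replicate 3 with 18 (2.83 CPM), HL collection 5 replicate 2 with 12 (1.89 CPM) and HL collection 6 replicate 3 with 7 (1.29 CPM). Each of the 4 had counts in both of its sequencing runs, 11 and 16, 4 and 14, 5 and 7, and 4 and 3, in that order. The remaining 12 libraries with a count had 1 to 3 counts each, and 46 libraries had none.

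By titles, HL libraries had 0 to 18 Il23r counts (median 0) and 46 in all, LH libraries 0 to 27 (median 0) and 32 in all, and HH libraries 0 to 1 (median 0) and 2 in all. The groups overlapped at 0, since 8 of 21 HL, 6 of 22 LH and 2 of 19 HH libraries had any count. Without LH collection 2 replicate 1, which held 27 of the 32 LH counts, the LH libraries had 5. Pooled over libraries, the level was 0.0174 CPM in HH (95% Poisson interval 0.0021 to 0.0628), 0.379 CPM in HL (0.277 to 0.505) and 0.263 CPM in LH (0.180 to 0.371). Such intervals cover counting error only. In bulk RNA, fewer cells of a type and less RNA per cell cannot be told apart, here or for the other genes. The ratio of HL to HH was 21.8, with a counting interval of 5.70 to 185. In the fit over 13292 genes, HH minus HL was -3.68 ± 0.82 (SE) on the log2 scale, the first rank of the comparison, and this value depends on the prior count added in the fit: with a prior count of 2 in place of the smaller default it was -0.89. LH minus HL was -0.94 ± 0.58, and it was -2.37 without LH collection 2 replicate 1 and -0.30 without HL collection 5 replicate 2. In the comparison of HH with HL, 0 genes passed an adjusted p of 0.05 in edgeR (0%) and 0 in DESeq2, while 986 (7.42%) had an unadjusted p under 0.05 and 160 (1.20%) had an unadjusted p under 0.01 over treatments and under 0.05 for the pair, limits taken from the study, which applied them to other tests, the second to a multiple comparison test. Outside the libraries at 1 CPM or more, 18 HL libraries held 9 Il23r counts, 21 LH libraries held 5 and 19 HH libraries held 2.

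By library number the same counts moved to LH. LH libraries then had 56 Il23r counts in 9 of 19 libraries, HL libraries 4 counts in 4 libraries and HH libraries 2 counts in 2. The library of 18 counts was among the 5 whose number is not listed, and left the comparison. LH collection 2 replicate 1, named LH both ways, supplied 27 of the 56 counts (48.2%). Pooled CPM was 0.527 in LH (0.398 to 0.685), 0.0337 in HL (0.0092 to 0.0863) and 0.0174 in HH. LH minus HL was 3.31 ± 0.73 on the log2 scale (rank 6 of 13198), opposite in sign to the value by titles, and HH minus HL was -0.71 ± 0.84 (rank 4733).

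**Figure D1:**
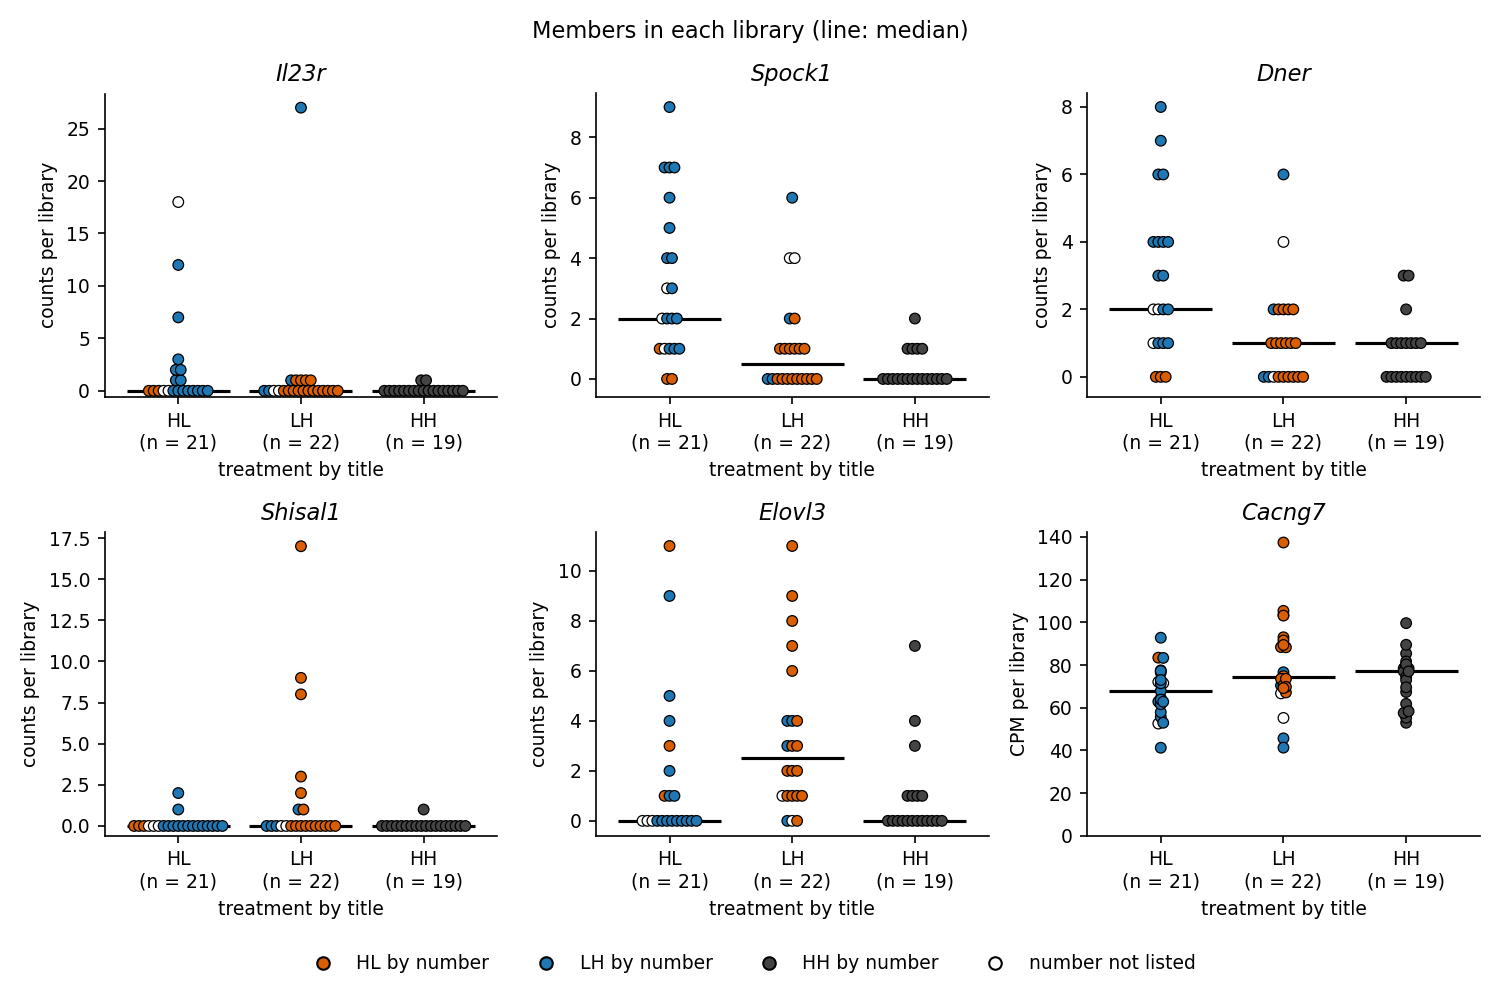
Raw counts per library of 5 genes, and CPM of Cacng7, by treatment as titled, with the colour giving the treatment by library number and the line the median. Il23r and Shisal1 are at 0 in most libraries, with the highest values in 4 and 3 libraries, while Cacng7 is present in all 62.

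Shisal1 had the fewest counts, 45 in 10 libraries, and 52 libraries had none. The counts were concentrated in LH collection 6 replicate 4 with 17 (2.76 CPM), LH collection 3 replicate 2 with 9 (1.38 CPM) and LH collection 4 replicate 3 with 8 (1.41 CPM), together 34 of 45 (75.6%). All 3 had counts in both runs. They are the only 3 libraries at 1 CPM, the smallest number with which a gene entered the fit, so leaving out any of them removed Shisal1 from the genes tested.

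By titles, LH libraries had 0 to 17 Shisal1 counts (median 0) and 41 in all, HL libraries 0 to 2 and 3 in all, and HH libraries 0 to 1 and 1 in all. The groups overlapped at 0, as 7 of 22 LH libraries had any count. The ratio of LH to HL in pooled CPM was 13.6 (counting interval 4.35 to 68.8) and of LH to HH 38.8 (6.58 to 1568). On the log2 scale LH minus HH was 3.30 ± 0.70, the first rank, and LH minus HL was 2.71 ± 0.65 (rank 4), or 0.78 with a prior count of 2.

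By number, the 3 libraries are HL libraries, and the direction between HL and LH turned. HL libraries had 40 counts in 6 of 19 libraries, LH libraries 4 in 3 and HH libraries 1 in 1. LH minus HL was -2.52 ± 0.73 and HH minus HL was -3.41 ± 0.76 (rank 2). Pooled CPM was 0.337 in the higher group under both namings, and 0.0247 (HL by title) or 0.0377 (LH by number) in the lower.

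Spock1 was spread over more libraries, with 98 counts in 35 libraries and no library above 9, and all of its counts came from the first of the 2 sequencing runs. The 4 highest libraries, with 7 to 9 counts, were all titled HL and are all named LH by number. By titles, HL libraries had 0 to 9 counts (median 2), with a count in 19 of 21. LH libraries had 0 to 6 (median 0.5), with a count in 11 of 22, and HH libraries had 0 to 2 (median 0), with a count in 5 of 19. The groups overlapped, although the 68 HL counts exceeded the 24 of LH and the 6 of HH.

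Pooled CPM of Spock1 was 0.560 in HL (0.435 to 0.710) and 0.197 in LH (0.126 to 0.293), and 0.0521 in HH (0.0191 to 0.113). HH minus HL was -3.00 ± 0.71 on the log2 scale (rank 3), or -1.17 with a prior count of 2. The mean CPM gave another order, 0.601 ± 0.511 (SD, n = 21) in HL and 1.94 ± 8.09 (n = 22) in LH. That LH mean came from LH collection 2 replicate 2, where 4 counts in 104912 made 38.1 CPM, and without it the LH mean was 0.215 ± 0.431.

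Within the titled treatments, Spock1 counts differed between the collections that keep and those that change their name, which is the division by which Spock1 was chosen by number and no separate finding about time. The 5 unlisted libraries of collection 2 neither keep nor change a name, and they had no part in the choice by number. All counts of LH collection 2 were in such libraries. The 3 HL libraries of collection 1 had 1 count in all, while the 18 HL libraries of collections 2 to 6 each had at least 1. In LH, collections 1 and 2 had 8 counts each in 3 libraries, and collections 3, 4, 5 and 6 had 1, 2, 0 and 5 counts in 4 libraries each. By library number the counts lay mostly in LH. LH libraries had 69 counts with a count in 17 of 19, HL libraries 9 with a count in 8 of 19, and HH libraries 6 with a count in 5 of 19. The 5 libraries with no listed number had 14 counts, 1 to 4 each. LH minus HL by number was 2.86 ± 0.52 (rank 2) and LH minus HH was 3.40 ± 0.56 (rank 2), where by titles LH minus HL was -1.07 ± 0.60. HH minus HL by number was -0.54 ± 0.61 (rank 5689).

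Dner had 102 counts in 41 libraries and at most 8 in a library. By titles, HL libraries had 0 to 8 counts (median 2), with a count in 18 of 21. LH libraries had 0 to 6 (median 1), with a count in 13 of 22, and HH libraries had 0 to 3 (median 1), with a count in 10 of 19. All 3 groups overlapped. The HL libraries of collection 1 had no Dner count, and the 18 of collections 2 to 6 each had at least 1, the same division by naming as for Spock1.

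Pooled CPM of Dner was 0.502 in HL (0.384 to 0.645) and 0.213 in LH (0.139 to 0.313), and 0.130 in HH (0.0729 to 0.215). HH minus HL was -1.80 ± 0.63 on the log2 scale, rank 153. By number, LH libraries had 64 counts (17 of 19 libraries), HL libraries 14 (10 of 19) and HH libraries 15 (10 of 19). LH minus HL was then 2.40 ± 0.53 (rank 4), and HH minus HL was 0.28 ± 0.61, so that the lower level of HH than of HL by titles was no longer seen.

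**Figure D2:**
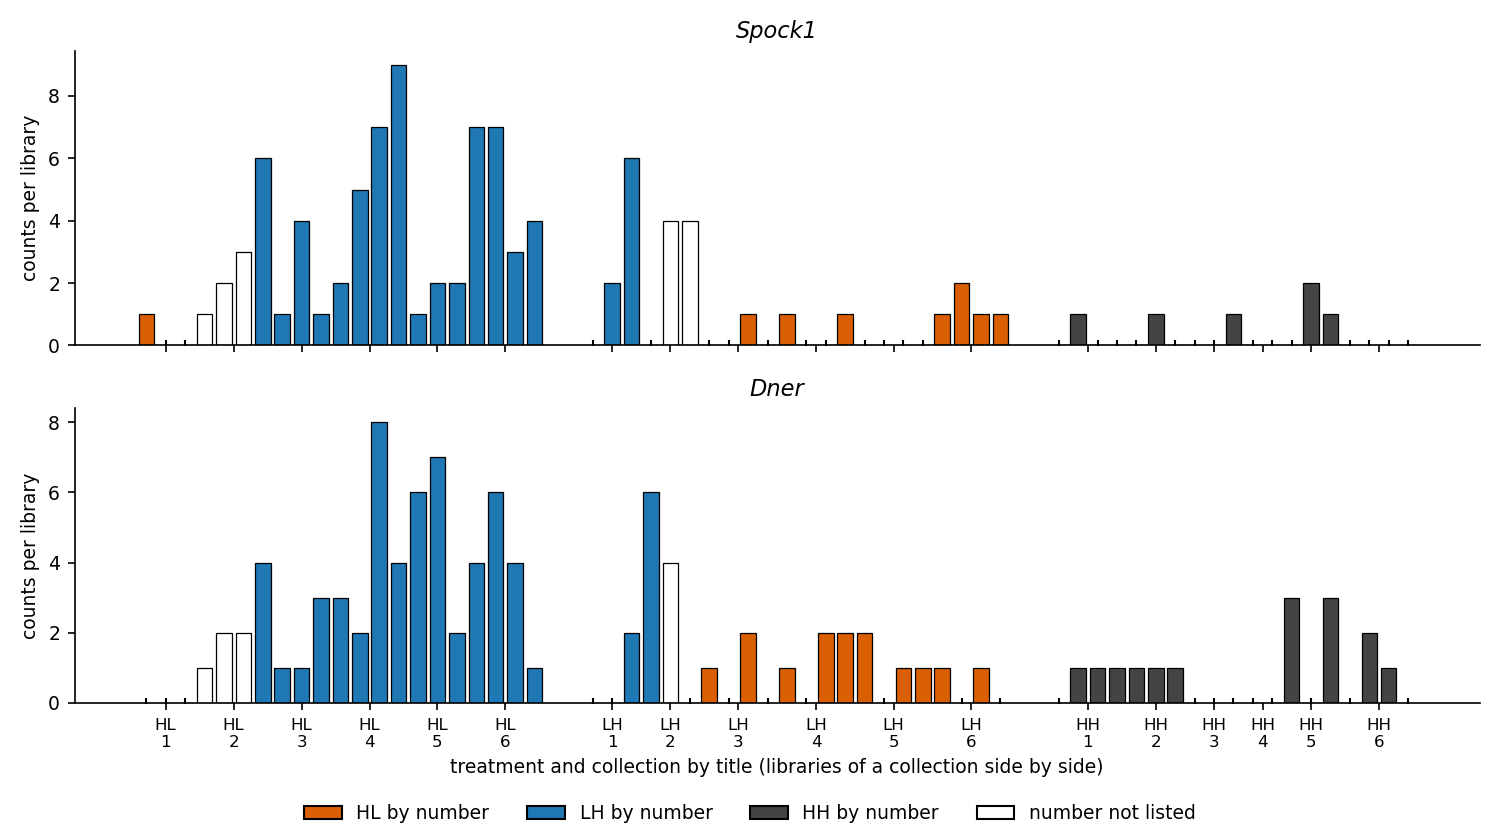
Raw counts of Spock1 and Dner in each of the 62 libraries, ordered by treatment and collection as titled (1 to 6), with bars coloured by the treatment of the library number and a tick for a library at 0. The counts of 4 or more are in libraries named LH by number, or not listed, and no HH library has more than 3.

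Elovl3 had 128 counts in 35 libraries, at most 11 in a library. By titles, LH libraries had 0 to 11 counts (median 2.5), with a count in 19 of 22. HL libraries had 0 to 11 (median 0), with a count in 9 of 21, and HH libraries had 0 to 7 (median 0), with a count in 7 of 19. The groups overlapped, and 3 HL libraries held 67.6% of the 37 HL counts.

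Pooled CPM of Elovl3 was 0.599 in LH (0.470 to 0.754), 0.305 in HL (0.214 to 0.420) and 0.156 in HH (0.0927 to 0.247). LH minus HH was 2.18 ± 0.60 on the log2 scale (rank 14) and LH minus HL was 1.18 ± 0.57. By number HL led instead, with 76 counts and a count in 18 of 19 libraries, against 33 counts in 9 LH libraries and 18 in 7 HH libraries. HH minus HL was -2.30 ± 0.54 (rank 3) and LH minus HL was -1.18 ± 0.53.

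**Figure D3:**
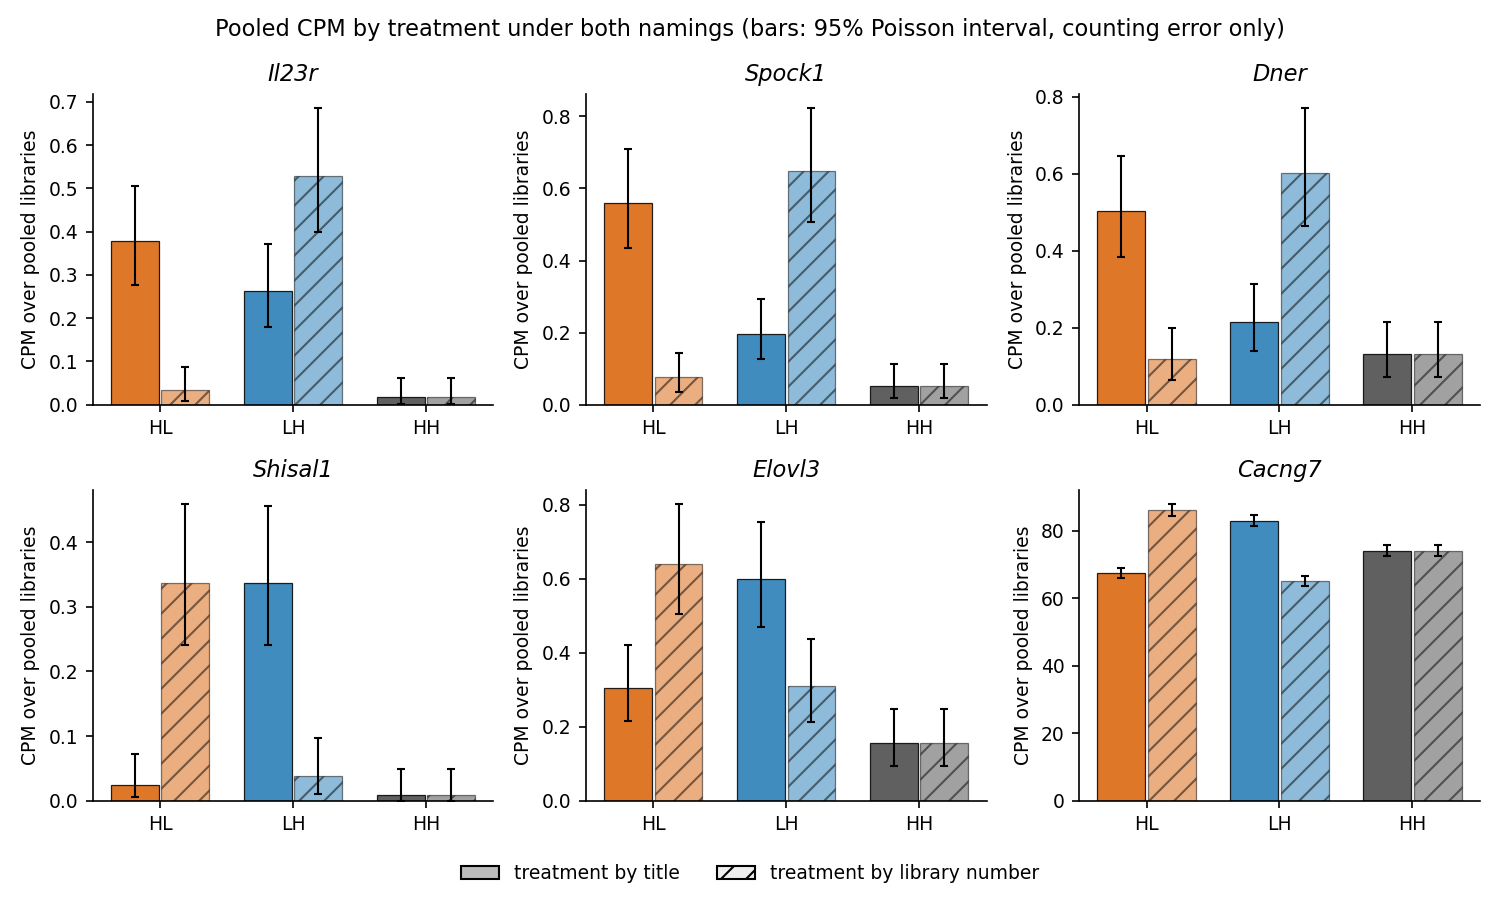
Pooled CPM of each gene by treatment, with libraries named by title (plain) and by library number (hatched); bars are 95% Poisson intervals and cover counting error only. For each gene the higher of HL and LH changes with the naming, and HH, which holds the same libraries in both, does not.

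Cacng7 was the only abundant gene of the 6, and its differences between treatments were small. By titles, HL libraries had 41.3 to 92.8 CPM (median 67.9), LH libraries 41.3 to 137 CPM (median 74.2) and HH libraries 53.0 to 99.6 CPM (median 77.0). The ranges overlapped, with 5 of 22 LH libraries above the highest HL library and 4 above the highest HH library. Mean CPM was 67.7 ± 12.2 (SD, n = 21) in HL, 79.8 ± 21.5 (n = 22) in LH and 73.5 ± 12.3 (n = 19) in HH. LH minus HL was 0.16 ± 0.08 and HH minus HL was 0.07 ± 0.08 on the log2 scale.

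By library number, Cacng7 was at 64.5 to 137 CPM in HL (median 83.5) and 41.3 to 92.8 CPM in LH (median 63.8). Means were 85.4 ± 18.0 and 65.1 ± 13.9 (n = 19 each). LH minus HL was -0.34 ± 0.07 on the log2 scale (rank 3), a small difference that stood high in the ranking with a standard error smaller than that of the other 5 genes. Cacng7 was low in the libraries with most Il23r: the 4 libraries with at least 1 CPM of Il23r had 41.3 to 53.0 CPM of Cacng7, against 45.7 to 137 CPM (median 73.5) in the 57 other libraries of at least 1000000 counts, 2 of which were lower than the highest of the 4. In the 12 other libraries with an Il23r count, Cacng7 was at 55.6 to 89.4 CPM. In the 3 libraries with at least 1 CPM of Shisal1, Cacng7 was at 69.2 to 104 CPM. These libraries were chosen by their counts, and the differences are given without a test. Of the 4 Il23r libraries 3 are LH by number and 1 is not listed, and the 3 Shisal1 libraries are HL by number. By number Cacng7 and Shisal1 were lower in LH than in HL, and Il23r was higher. The genes were chosen for such differences, so these levels of Cacng7 are no separate finding.

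The comparisons that chose the 6 genes called few genes, and since the genes were chosen from them, these shares are given as background only. By titles, LH against HL and LH against HH each had 0 genes (0%) at an adjusted p of 0.05 in edgeR. At an unadjusted p under 0.05 they had 756 (5.69%) and 695 (5.23%), and at the limits of 0.01 over treatments and 0.05 for the pair 154 (1.16%) and 121 (0.910%). By number, HH against HL, LH against HL and LH against HH had 1 (0.00758%), 2 (0.0152%) and 3 (0.0227%) genes at an adjusted p of 0.05. At an unadjusted p under 0.05 these comparisons had 478 (3.62%), 1007 (7.63%) and 1351 (10.2%), and at these limits 75 (0.568%), 177 (1.34%) and 215 (1.63%).

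**Figure D4:**
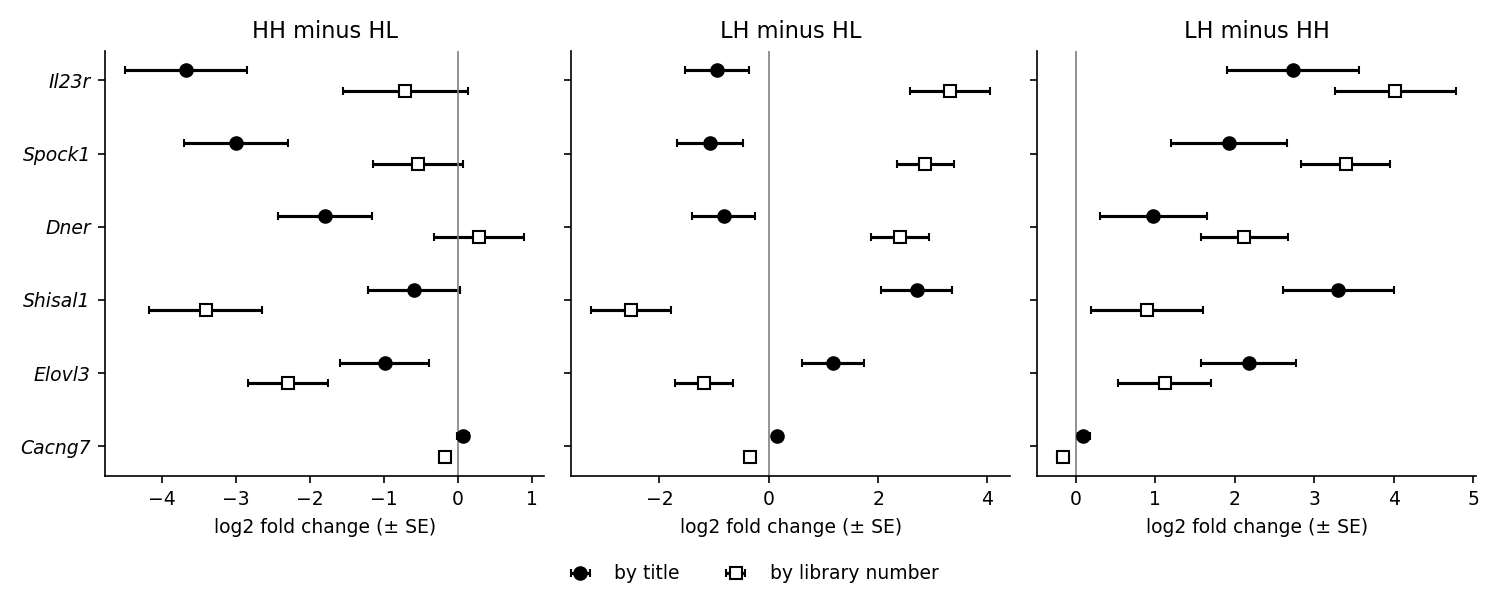
Log2 fold changes (± SE, edgeR fit over all genes tested) of the 6 genes between treatments, with libraries named by title (filled circles, 62 libraries) and by library number (open squares, 57 libraries). All 6 genes have opposite signs for LH minus HL under the namings.

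Sequencing run was not used in choosing the genes, and Spock1 and Dner were found almost only in run 1. The comparison of runs was added after the counts by run had been seen, so the values of the 6 genes are a description, with no test. The 59 libraries with 2 runs had 172913312 counts in run 1 and 173908025 in run 2. Over these, Spock1 had 91 counts in run 1, in 34 libraries, and 0 in run 2, where 3 counts, the limit that a count of 0 allows, would be 0.0173 CPM. Against that limit the level in run 1 was 30.5-fold higher, and the lower 95% limit of the ratio from the counts was 24.3. Dner had 89 counts in run 1 and 3 in run 2, a ratio of 29.8 with a counting interval of 9.88 to 147. Each library with a run 2 count of Dner also had run 1 counts, and there were 2 such libraries.

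Elovl3 went the other way, with 48 counts in run 1 and 80 in run 2. Il23r had 30 and 50 counts, Shisal1 28 and 17, and Cacng7 13073 and 12888. In an edgeR quasi-likelihood fit with the library as block, 2265 of 13292 genes differed between runs at an adjusted p of 0.05, or 17.0% (8.39% higher in run 1 and 8.65% higher in run 2). Run 2 minus run 1 in that fit was -3.63 ± 0.39 (SE) on the log2 scale for Spock1, -3.22 ± 0.36 for Dner and 0.75 ± 0.28 for Elovl3. It was 0.60 ± 0.35 for Il23r, -0.66 ± 0.40 for Shisal1 and -0.01 ± 0.02 for Cacng7. Spock1, Dner and Shisal1 did not pass the filter with run 2 alone.

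**Figure D5:**
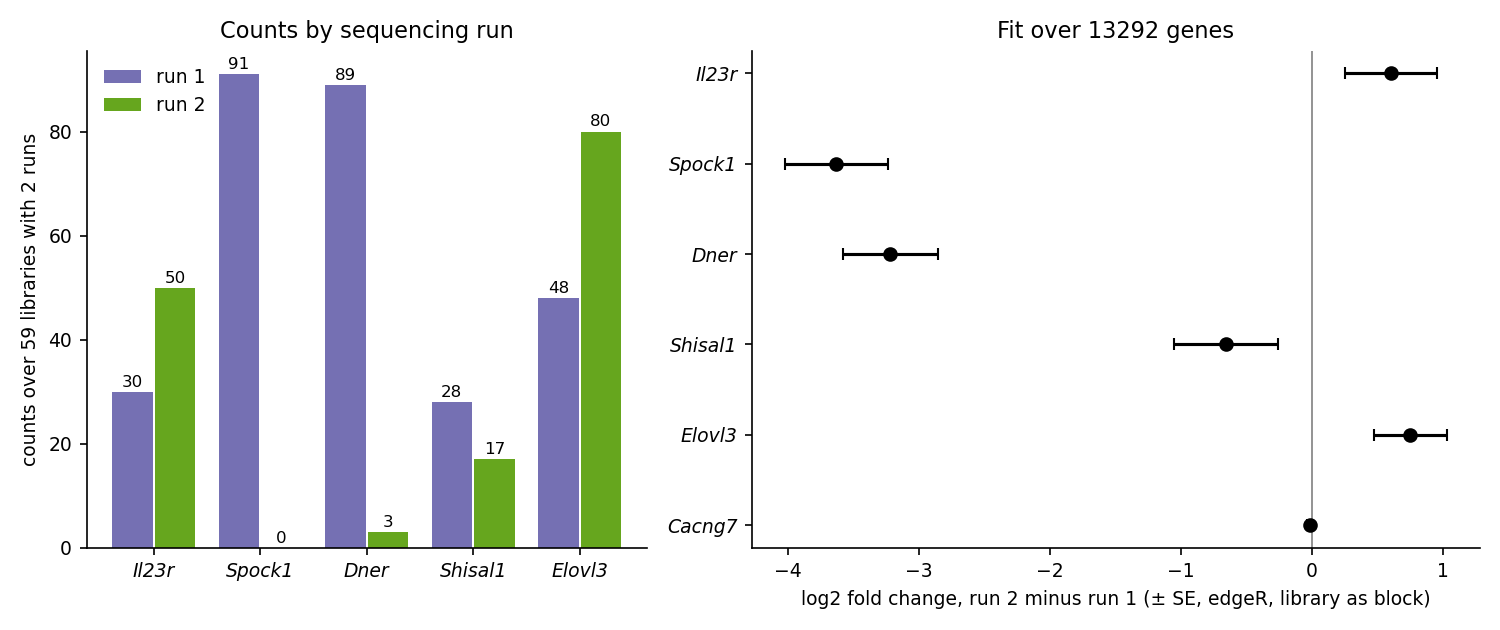
Left, counts of 5 genes in each sequencing run, summed over the 59 libraries with 2 runs. Right, log2 fold change of run 2 minus run 1 (± SE) for the 6 genes from the fit over 13292 genes; Spock1 and Dner lie far to the side of run 1, and Cacng7 lies near 0.

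Genes seen in a single run were few. Of 12851 genes with at least 50 counts in run 1, 26 had 0 in run 2 (0.202%), Spock1 among them, and of 12737 with at least 50 in run 2, 24 had 0 in run 1 (0.188%). The 26 included the blood cell genes Lcp2, Ikzf1, Btk and Ighm and the embryonic stem cell genes Zfp42, Lin28a, Utf1 and Tdgf1. The 24 included the liver genes Ttr, Mup3, Serpina1c and Apoc3. The 5 macrophage markers together were at 35.2 CPM in run 1 and 9.78 in run 2, and 4 of the 4 tested were higher in run 1. The 8 lymphocyte markers were at 2.81 and 0.265 CPM. The part of these differences in the counts of Spock1 and Dner was not tested, nor was whether their counts come from the fibroblasts of these libraries, and their treatment values are to be read with that limit.

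The other 25 genes of run 1 alone had overlapping ranges and similar medians in the treatments. Their summed run 1 counts per library were 27 to 62 in HH (median 39), 24 to 56 in titled HL (median 42) and 18 to 78 in titled LH libraries (median 41.5). By number the medians were 44 in HL and 41 in LH. In LH collection 2 replicate 2, the shallow library, they had 18 counts, which relative to the total of its first run lay above the 7.92 to 29.4 CPM of the other 61 libraries. That library also had 4 Spock1 counts, 4 Dner counts and 1 Elovl3 count.

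With run 1 alone, the Spock1 counts by treatment were those of the summed runs, since run 2 had none. In summed counts Il23r kept its order in each run, with 16, 13 and 1 counts in HL, LH and HH in run 1 and 30, 19 and 1 in run 2 by titles. Its mean CPM in run 1 was 0.243 in HL and 0.273 in LH. Both runs come from the same libraries, so neither is separate support for a difference between treatments. Shisal1 had 26 of 28 run 1 counts and 15 of 17 run 2 counts in titled LH libraries. With run 2 alone, the 3 genes that passed the filter were Il23r, Cacng7 and Elovl3.

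The naming follows the collections, so in HL and LH the time of collection is not independent of how the genes were chosen, and the values of the 6 genes over time are a description, with no test. Over all treatments by titles, Il23r had 1, 47, 3, 5, 15 and 9 counts in collections 1 to 6, with 45 of the 47 in 2 libraries. Across collections, 219 of 13292 genes differed at an adjusted p of 0.05 in edgeR by titles (1.65%) and 715 by number (5.42%). Without LH collection 2 replicate 1, which held the most Il23r, the number by titles was 65, and without HL collection 2 replicate 3 it was 76.

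In titled LH libraries mean Cacng7 CPM was 64.2 ± 16.4 (SD, n = 3) at collection 1, 54.4 ± 12.7 (n = 3) at collection 2, 93.3 ± 7.1 (n = 4) at collection 3, 102 ± 27 (n = 4) at collection 4, 83.3 ± 16.2 (n = 4) at collection 5 and 70.8 ± 1.9 (n = 4) at collection 6. The libraries of collections 3 to 6 are HL by number, and those of collections 1 and 2 are LH or not listed, so a difference over time and the difference of HL from LH by number cannot be told apart here.

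HH libraries have the same name both ways, and a 24 h cosine over the collections could be tested in them. It was called for 0 of the 6 genes in edgeR, with adjusted p from 0.791 (Cacng7) to 0.997 (Elovl3) and 0 of the 6 at an unadjusted p under 0.05, where 21 of all genes (0.158%) were called. The 5 low genes reached 1 CPM in 0 HH libraries and passed the filter through HL and LH libraries. In the 19 HH libraries they had 2 (Il23r), 6 (Spock1), 15 (Dner), 1 (Shisal1) and 18 (Elovl3) counts in all. With so few counts a cosine could hardly be called, so their results in HH say nothing on a rhythm. The times follow the order of the collections, 4 h apart, and the hours in the labels differ from it, being 20, 12, 4, 8, 12 and 16 for collections 1 to 6 of HL and HH, and 20, 12, 16, 20, 12 and 16 for LH. With the hours of the labels, an alternative added after the data had been seen, the adjusted p in HH was 0.731 (Dner) to 0.990 (Spock1), and DESeq2 gave an adjusted p for Cacng7 alone, 0.769. As background, the cosine was called for 6 genes in HL (0.0451%) and 21 in LH (0.158%) by titles, and by number for 25 in HL (0.189%), 32 in LH (0.242%) and 49 in HH (0.371%).

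The p-values measure the spread between these libraries, which the labels do not describe as separate cultures, whereas the study's methods state that its replicates are biological.

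Genes of the same families and pathways were in part abundant in these cells, on the CPM scale of reads from 3′ ends, which is not divided by gene length. Of the 15 genes listed with Il23r, 6 were tested and 3 (Il17a, Il17f and Il22, the cytokines of T helper 17 cells) had no count. The most abundant were Il6st, the shared receptor chain of the interleukin 6 family, at 180 ± 35 CPM (SD, n = 62) and Stat3 at 153 ± 29 CPM. The partner chain Il12rb1 had 189 counts in 49 libraries. Spock1 stands in a family of 7 tested genes, led by Sparc at 13110 ± 2396 CPM and Fstl1 at 1036 ± 200 CPM, and its closest relatives Spock3 and Spock2 were at 78.9 ± 13.5 and 1.44 ± 1.05 CPM.

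Among 16 Notch ligands, receptors and targets, 10 were tested, and Notch2 (36.1 ± 8.9 CPM) and Notch3 (21.8 ± 5.3 CPM) had the highest levels. Of the 11 calcium channel gamma and alpha2delta genes listed with Cacng7, 3 were tested. Cacna2d1 was at 95.8 ± 22.1 CPM and Cacna2d3 at 0.561 ± 0.707 CPM, and no other gamma subunit exceeded the 0.369 ± 0.550 CPM of Cacng8. In the Shisa family 2 of 10 genes were tested, Shisa5 at 449 ± 74 CPM and Shisa4 at 117 ± 23 CPM. Of 11 genes of fatty acid elongation 10 were tested, with Tecr at 670 ± 89 CPM and Hacd3 at 182 ± 25 CPM. In none of the 6 lists was any gene called in edgeR between collections, between HH and HL or between LH and HL at an adjusted p of 0.05, where 1.65%, 0% and 0% of all genes tested were called, so that few or no calls would be seen in lists of this size. Median log2 fold changes of the lists lay between -0.09 and 0.21 for HH minus HL and between -0.14 and 0.06 for LH minus HL, against 0.00 for all genes tested in both.

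Over the 61 libraries of at least 1000000 counts, the gene most like Spock1 was Dner, with a Spearman rho of 0.47, and 28 libraries had counts of both. Of all genes tested, Spock1 was also the most like Dner. The libraries differ in depth, and nearly all counts of both genes come from run 1. The 6 genes were also chosen for differences between groups of these same libraries, so rho among them is no separate finding. Cacng7 was most like Cdc42ep1 (rho 0.73) and Igsf3 (0.71), Il23r like Slc6a4 (0.53) and Dubr (0.50), Elovl3 like D11Wsu47e (0.53) and Eva1b (0.51), and Shisal1 like Drc3 (0.44) and Gm47270 (0.39). Among the 6, the other pairs had rho between -0.33 (Il23r and Cacng7) and 0.35 (Shisal1 and Elovl3).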

How the data were processed

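The authors deposited raw counts of uniquely aligned reads by gene, without normalization, in 121 sets that split most libraries into 2 sequencing runs. The submitters' processing notes name bcl2fastq, STAR 2.6.0a, HTSeq 0.9.1 and mm10; for the annotation release and the use of strand, nothing is given in the sources used here. Reads on no feature (18.4% to 29.1% per library) and ambiguous reads (0.288% to 0.459%) were left out. Symbols and positions came from GENCODE M21 (GRCm38), which matched 30934 of 31053 identifiers. Runs were summed by library. Groups came from sample titles, and a second naming from the library numbers of the study's read summary, whose names differ for 40 libraries, 5 of them unlisted.

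Genes reaching 1 CPM in 3 or more libraries (13292 by titles, 13198 by number) were fitted in edgeR 4.0.16 (R 4.3.3; TMM, quasi-likelihood test, treatment and collection as terms) and adjusted by Benjamini-Hochberg over all of them. All 6 genes passed, 5 of them through a few libraries where they were high. The cosine model had a level, a cosine and a sine of 24 h for each treatment, with times from the order of the collections, and runs were compared with library as block. DESeq2 1.42.0 was an alternative. The treatment, collection, run and cosine tests were checked on simulated data. A library of 5825881 counts, the median, holds about 6 counts for a gene at 1 CPM. The 6 genes and all lists were chosen with earlier results of these data known. Genes named are the 6, the leading members of their family lists and the 2 genes most like each by Spearman rho, beside genes of a single run, Spock2, Spock3, Il12rb1, Cacng8 and other genes without counts, which were named after their values were seen.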

Additional observations from a re-analysis of the deposited data

How the results depend on the processing

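Naming by library number turned the direction of 3 values that exceeded 2 standard errors by titles: Dner in HH minus HL to 0.28, Shisal1 in LH minus HL to -2.52 and Elovl3 in LH minus HL to -1.18. By number, 1 gene was called for HH against HL and 2 for LH against HL at an adjusted p of 0.05, and with the first run alone 2 and 1, where the summed runs by titles gave 0. At an unadjusted p under 0.01 over treatments and 0.05 for the pair, 160 genes were called for HH against HL and 154 for LH against HL; HH against HL gave 75 by number, 106 without the libraries marked as removed, 399 with all genes with any count and 80 with the replicate block, and LH against HL gave 387 with all genes and 77 with the block. Replicate numbers shared by libraries did not pair them: of 52 pairs with the same number, 10 had a correlation over 0.1 (median -0.01). Of 153 pairs with different replicate numbers, 26 did (median 0.003). Collection was called for 219 genes by titles, 715 by number, 337 with the second run alone, 767 with all genes and 416 with DESeq2. The 24 h cosine was called for 6, 21 and 21 genes in HL, LH and HH by titles, 25, 32 and 49 by number 10, 67 and 53 with DESeq2, and 1, 10 and 2 with the hours of the labels, an alternative added after the data had been seen.

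Leaving out each library in turn gave 0 to 2 genes for LH against HL and 65 to 461 for collection. The 65 were without LH collection 2 replicate 1; without HL collection 2 replicate 3 it was 76, and without HL collection 5 replicate 2, HL collection 2 replicate 4, HH collection 2 replicate 1 or HH collection 2 replicate 3 it was 461, 400, 376 and 347. Il23r in HH minus HL was -4.21 to -3.06 and Spock1 -3.47 to -2.85; Shisal1 in LH minus HL was 2.59 to 3.37 in the 59 fits that could include it. Between runs, 2331 genes were called with both runs of at least 1000000 counts. Thinning to 2000000 counts left Il23r in 4 of 21 HL libraries and 0 of 19 HH libraries, and Shisal1 in 0 of 21 HL libraries. With 1 CPM asked of 10 libraries, 1 of the 6 genes, Cacng7, was tested. The cause of these shifts was not tested. Depth limits the 5 low genes: a count of 0 in a library still allows the level that 3 counts would give.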
